A study of Homo sapiens with 6 samples.

Results

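Silencer 1 excision was compared with the empty vector in 4 of the 6 libraries of the series, chosen by the group and replicate number in their titles. All libraries came from K562, an established leukaemia line derived from human chronic myeloid leukaemia. The 2 EV libraries came from cells that received an empty vector, and the 2 S1KO libraries from cells in which CRISPR was used to cut out silencer 1. The other 2 libraries (DKO) came from cells without silencers 1 and 2, and they entered the fits for their share of the spread and are given beside S1KO. The labels call EV untreated as well as a CRISPR condition. The submitters speak of biological replicates but do not say whether these were separate cultures, or whether cells were a clone or a pool, and the p-values therefore speak of the spread among these libraries, which may be technical. The interval cut out as silencer 1 is not given in the sources used here, so the excision itself was not checked.

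FGF18 encodes a secreted fibroblast growth factor that signals through FGF receptor tyrosine kinases and is known for its roles in bone, cartilage and lung development. A silencer is a stretch of DNA that lowers transcription of a gene, often from a distance and through contact with its promoter. Many silencers carry H3K27me3, the histone mark laid down by EZH2 in Polycomb repressive complex 2, and REST is a DNA-binding repressor of neuronal genes. The series title names EZH2 and REST inhibition as ways to perturb a super-silencer. The comparison asks whether loss of silencer 1 alone changes which DNA lies near FGF18 in the nucleus. It was read by 4C-seq, in which crosslinked chromatin is cut with HindIII, religated, cut again with DpnII, and sequenced outward from 1 chosen fragment, the viewpoint.

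The promoter of FGF18 is shown because this gene names the viewpoint. The 250 bases before the annotated start, plus strand of chromosome 5, from RefSeq on GRCh38.p14, are printed with each CG dinucleotide in capitals.

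FGF18: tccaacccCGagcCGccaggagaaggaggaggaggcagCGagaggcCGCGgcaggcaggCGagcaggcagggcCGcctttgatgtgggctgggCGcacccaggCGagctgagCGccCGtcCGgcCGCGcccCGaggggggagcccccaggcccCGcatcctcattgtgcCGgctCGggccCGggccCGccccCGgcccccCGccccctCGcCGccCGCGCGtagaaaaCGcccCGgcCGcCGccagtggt

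This stretch holds 31 CG dinucleotides, against a median of 11 over the same stretch of 35116 RefSeq promoters. At least as many were found in 10.9% of them. Neither AAGCTT, the HindIII site, nor GATC, the DpnII site, is among these letters. Over all promoters 5.02% hold AAGCTT and 35.8% hold GATC, and both motifs read alike on either strand.

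The viewpoint fragment was chr5:170851908-170853009 (hg19). No hg19 gene positions were used, so contacts are placed by distance, where "below" means toward the centromere and "above" toward the telomere. Gene names are given by order alone, from RefSeq on GRCh38.p14. Going down from FGF18, the next protein-coding genes are NPM1 (nucleophosmin, a nucleolar chaperone mutated in acute myeloid leukaemia), TLX3 (a homeobox factor switched on in some T-cell leukaemias), RANBP17 (a nuclear transport receptor) and GABRP (a GABA receptor subunit). KCNMB1 and KCNIP1, which modulate potassium channels, and LCP2, an adaptor of T-cell receptor signalling, follow. Going up, the order is SMIM23, FBXW11 (substrate receptor of a ubiquitin ligase), STK10 (a kinase of lymphocytes), EFCAB9 (a calcium-binding protein of sperm), UBTD2 and SH3PXD2B (a podosome scaffold). NEURL1B (a ubiquitin ligase of Notch signalling) and DUSP1 (a phosphatase that switches off MAP kinases) come next. No window or fragment below was assigned to any of these genes.

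The S1KO libraries held 1270579 and 1238383 reads and the EV libraries 708503 and 1919737. Within 2 Mb of the viewpoint, leaving out the 10 kb beside it, lay 131098 and 107152 reads in S1KO, 68303 and 65464 in EV, and 241066 and 271861 in DKO. EV replicate 2 stood apart: 3.41% of its reads lay there, against 8.65% to 10.3% in the other 3 EV and S1KO libraries. It listed 445 fragments there, against 709 in EV replicate 1 and 739 and 647 in S1KO. Thinned to 65464 reads each, the S1KO libraries would still list 730 and 641, so EV replicate 2 listed fewer fragments at an equal number of reads within 2 Mb. Of 917 fragments within 2 Mb that any library read, 340 had a read in all 4 EV and S1KO libraries.

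Contacts were densest close to FGF18 in both groups, and no window within 2 Mb passed the test after silencer 1 was removed. Of 80 windows of 50 kb, 0 passed an adjusted p of 0.05 in edgeR's quasi-likelihood test (0% called), with 3 (3.75%) at an unadjusted p under 0.05, while DESeq2 called 0 with 4 under 0.05. Levels are given as reads per 1000 reads within 2 Mb, written "per 1000" from here on. Window changes ran from log2 -1.21 to 1.54 with a median of 0.0092, and standard errors ran from 0.18 in the fullest windows to 1.05 in the sparsest. These errors limit what 2 libraries a group can show. Some window changes depended on which EV library was kept. Without EV replicate 1, EV replicate 2 alone stood for EV. The windows chr5:170602458-170652457, chr5:170502458-170552457 and chr5:169702458-169752457 were then at log2 1.91, 2.39 and 1.70. Without EV replicate 2 they were at log2 -0.0013, 1.01 and 0.098.

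**Figure D1:**
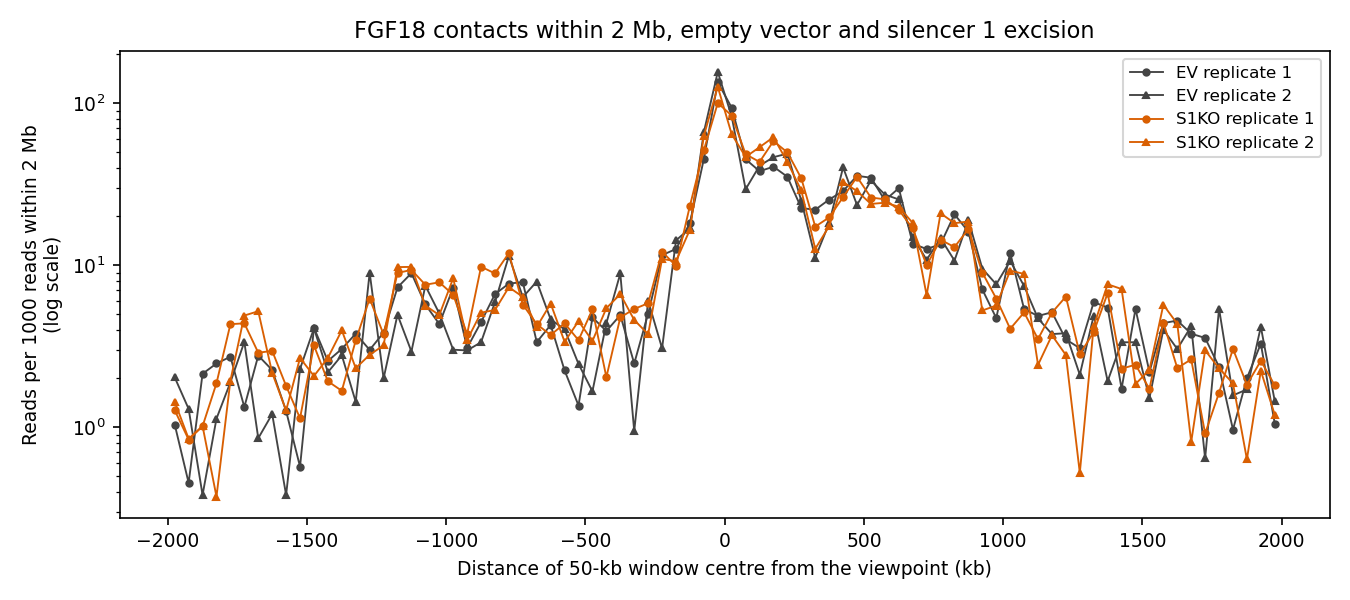
Reads per 1000 reads within 2 Mb (log scale) in each of 80 windows of 50 kb, against the distance of the window centre from the viewpoint, for 2 EV and 2 S1KO libraries (1 line each). All 4 lines peak at the viewpoint and fall on both sides, with 134.6 and 155.7 per 1000 in EV and 100.2 and 126.1 in S1KO in the window just below it.

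In relative terms, S1KO held a larger share of contacts on the far centromeric side and a smaller share on the far telomeric side than EV, although no band could pass its test with 2 libraries a group. The share of reads was split into 10 distance bands, 5 on each side. The farthest band below, from 1000 to 2000 kb, held 63.6 and 56.7 per 1000 in EV and 76.4 and 68.9 in S1KO. Both S1KO values lay above both EV values, and the mean was 1.21 times the EV mean (difference 12.5, SE 5.10, exact two-sided permutation p = 0.33). From 500 to 1000 kb below, EV held 48.2 and 52.0 and S1KO 62.5 and 53.7, again without overlap. From 200 to 500 kb below, EV held 32.6 and 24.99 and S1KO 35.4 and 34.7. The 3 bands beyond 200 kb on the centromeric side were thus all higher in both S1KO libraries.

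As shares of the reads within 2 Mb, the 2 farthest bands on the telomeric side were lower in both S1KO libraries, and the band nearer in did not share this. The bands were not computed on the scale of chr5 reads. From 200 to 500 kb above the groups overlapped, at 169.3 and 166.7 per 1000 in EV and 182.3 and 163.5 in S1KO (difference 4.92). From 500 to 1000 kb above, EV held 177.8 and 173.2 per 1000 and S1KO 159.7 and 164.4, a difference of -13.4 (SE 3.33). From 1000 to 2000 kb above, EV held 80.5 and 73.6 and S1KO 65.2 and 72.7, where EV replicate 2 and S1KO replicate 2 lay within 1 read per 1000 of each other. Each of the 5 bands beyond 200 kb without overlap gave the exact permutation p of 0.33, the smallest that 2 libraries against 2 can give. After Benjamini-Hochberg adjustment over the 10 bands it was 0.556. Counted by fragments with at least 1 read in place of reads, the band from 500 to 1000 kb below turned to -3.32 per 1000, and the other 4 kept their direction. Such shares also follow how many fragments each library listed, so they cannot test these differences in either direction.

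Dividing the reads above by those below puts both sides in 1 number that does not depend on how libraries are scaled. From 250 kb to 2 Mb it stood at 2.95 and 2.79 in EV and at 2.205 and 2.44 in S1KO, with no overlap. The difference was -0.31 on the log2 scale (SE 0.084, exact two-sided permutation p = 0.33). It stayed between -0.38 and -0.23 with any 1 of the 4 libraries left out. By fragments with at least 1 read it was -0.17, but that count also follows how many fragments each library listed and cannot test the difference. The DKO libraries, which lack silencer 2 as well, stood at 1.20 and 1.08.

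**Figure D2:**
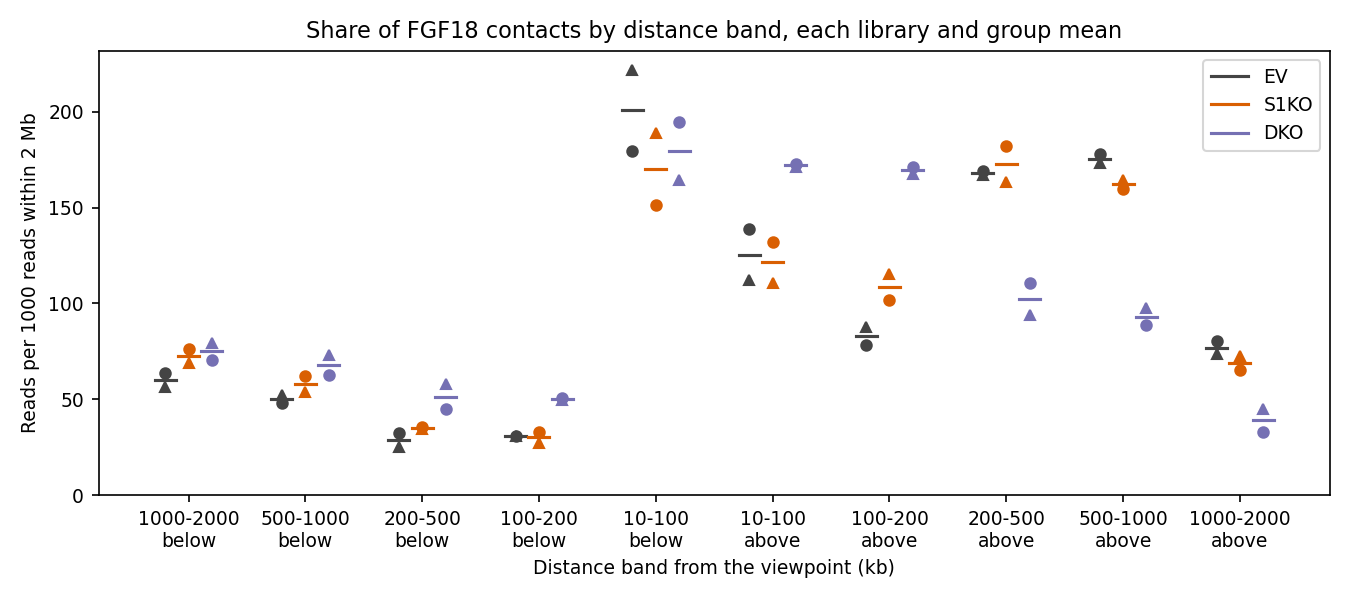
Reads per 1000 reads within 2 Mb in 10 distance bands (kb from the viewpoint), with a circle for replicate 1, a triangle for replicate 2 and a bar for the mean of each group. S1KO lies above EV in the 3 farthest bands below and in the band from 100 to 200 kb above, and below EV in the 2 farthest bands above, while DKO lies at 39.1 and EV at 77.0 per 1000 in the last of these.

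The same tilt could be counted over single windows, although these share reads with the bands. Of the 36 windows from 200 kb to 2 Mb below, 23 were higher in S1KO than in EV, with a median of log2 0.21. Of the 36 windows as far above, 22 were lower, with a median of log2 -0.09. Both S1KO libraries lay above both EV libraries in 9 of the 36 windows below and in 5 of the 36 above. They lay below both in 1 and 10. The telomeric side of this depends on the scale: with chr5 reads as library size, 14 of the 36 windows above were lower (median log2 0.13) and 31 of the 36 below were higher (median 0.44), while TMM and DESeq2 gave 23 and 22 lower above, and 21 and 21 higher below. Over all 80 windows the groups did not overlap in 37.5%, with S1KO higher in 21.2% and lower in 16.2%. Where groups do not differ, 2 libraries against 2 lie without overlap at a rate of 0.33, the exact two-sided permutation p of such a split. The 37.5% was close to that rate, so it does not show a difference between the groups. Non-overlap of a single window, band or fragment is therefore a description.

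Between 100 and 200 kb above the viewpoint, S1KO held 101.7 and 115.1 per 1000 and EV 78.5 and 87.5. Both S1KO libraries lay above both EV libraries, by 1.31 times on the means (difference 25.4, SE 8.09, exact permutation p = 0.33). This was the band with the largest rise in mean share. The DKO libraries held 171.3 and 167.7. The 25 fragments of this stretch did not move together. In 7 both S1KO values exceeded both EV values and in 2 both lay below them, beside 19.4% and 10.9% of all fragments tested within 2 Mb. Their sizes differed widely, and the 3 with the lowest p carried most of the difference.

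The fragment chr5:170970838-170983335 (12.5 kb long, 125 kb above) held 5.04 and 11.6 per 1000 in EV, 14.8 and 17.6 in S1KO and 18.7 and 15.9 in DKO. The S1KO values were near the DKO values, and the EV libraries differed from each other by more than the S1KO libraries did. The fragment chr5:171021955-171042009 (20.1 kb long, 180 kb above) held 4.06 and 5.45 in EV, 9.16 and 14.2 in S1KO and 10.0 and 8.75 in DKO. Here too both S1KO libraries lay above both EV libraries. The fragment chr5:171010438-171016070 (5.63 kb long, 161 kb above) held 4.26 and 5.94 in EV, 6.64 and 12.8 in S1KO and 17.0 and 12.1 in DKO, so its S1KO mean rested on replicate 2. Together these 3 held 18.2 ± 6.85 per 1000 in EV and 37.6 ± 9.80 in S1KO (SD, n = 2 each), 76.3% of the band's rise. They are named for their low p in this contrast, so that sum is a description with no test. The other 22 fragments held 65.2 and 64.5 in EV, 71.0 and 70.6 in S1KO and 125.6 and 131.0 in DKO.

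**Figure D3:**
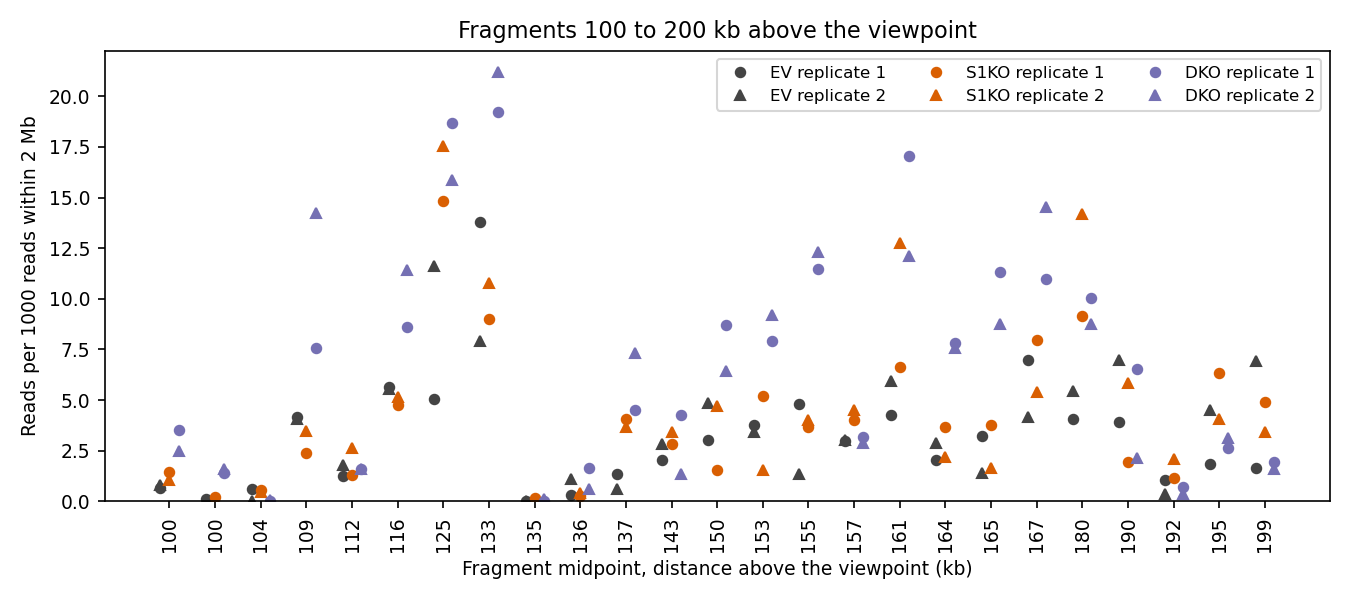
Reads per 1000 reads within 2 Mb for the 25 HindIII fragments whose midpoints lie 100 to 200 kb above the viewpoint, in 6 libraries (circles replicate 1, triangles replicate 2). Both S1KO libraries lie above both EV libraries in 7 fragments, including those at 125, 137, 161 and 180 kb. S1KO overlaps EV in most other fragments, where DKO often stands higher.

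The rise in this stretch depended on the reads of its strongest fragments. With reads capped at the 90th percentile of each library the difference was 0.381 per 1000 in place of 25.4. By fragments with at least 1 read it was -6.18. Nearly all 25 fragments had a read in each of these libraries, so that share follows how many fragments a library listed within 2 Mb. These were 709 and 445 in EV and 739 and 647 in S1KO, so the share by fragments cannot test the rise. The 2 windows of the stretch are chr5:170952458-171002457, at 38.0 and 41.1 per 1000 in EV and 43.4 and 53.5 in S1KO, and chr5:171002458-171052457, at 40.5 and 46.4 in EV and 58.3 and 61.7 in S1KO. The second stood at log2 0.46 (SE 0.20, edgeR adjusted p = 0.576), and at -0.0087 with capped reads.

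At the strongest contact beside the viewpoint S1KO held less, not more. The strongest contact in every EV and S1KO library outside the 10-kb zone was chr5:170835262-170840025, 14.8 kb below. It took 78.0 and 79.3 per 1000 in EV, 48.0 and 55.3 in S1KO and 79.0 and 56.4 in DKO. Both S1KO values were under both EV values, and the second DKO library lay close to them. Its mean share in S1KO was 0.657 times that in EV. In the fit over all of chr5, which is scaled to chr5 reads and has a median of log2 0.43 within 2 Mb, it stood at log2 -0.38 (SE 0.17, edgeR adjusted p = 0.438). There it stood at -0.065 without EV replicate 1 and -0.60 without EV replicate 2. Between it and the viewpoint lies an interval that no library lists, chr5:170840932-170851907. The window that holds it, chr5:170802458-170852457, was at 134.6 and 155.7 per 1000 in EV and 100.2 and 126.1 in S1KO. The change was log2 -0.36 with an SE of 0.18 and an edgeR adjusted p of 0.576. It was log2 -0.084 with chr5 reads as library size, -0.14 with capped reads and -0.42 with TMM factors. Once the 20 kb beside the viewpoint were left out it was -0.20. The band from 10 to 100 kb below held 179.7 and 221.9 in EV and 151.4 and 188.9 in S1KO, so the groups overlapped (difference -30.7, exact two-sided permutation p = 0.67). That difference was -51.8 without EV replicate 1, -9.60 without EV replicate 2, -11.9 without S1KO replicate 1 and -8.92 once the 20 kb beside the viewpoint were left out. The groups also overlapped from 10 to 100 kb above, at 138.8 and 112.2 in EV and 132.3 and 110.9 in S1KO. From 100 to 200 kb below they overlapped as well, at 30.8 and 31.1 in EV and 33.2 and 27.1 in S1KO.

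Within 62.1 kb of the viewpoint the other strong contacts differed fragment by fragment. Below, chr5:170820839-170833077 held 25.8 and 44.1 per 1000 in EV and 27.9 and 28.3 in S1KO, and chr5:170784301-170796497 held 15.2 and 19.9 in EV and 15.4 and 21.9 in S1KO. Both groups overlapped in these 2 places. Between them chr5:170796502-170804577 held 11.9 and 25.9 in EV and 22.1 and 27.8 in S1KO, where EV replicate 1 alone was low. Its mean share in S1KO was 1.32 times that in EV, and in the fit scaled to chr5 reads it stood at log2 0.73 with an SE of 0.24 and an edgeR adjusted p of 0.438. The remaining strong contact below, chr5:170804582-170813634, held 9.90 and 18.7 in EV and 9.44 and 16.6 in S1KO.

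Above the viewpoint, 2 of the strong EV contacts were lower in both S1KO libraries. The fragment chr5:170881642-170892718, 34.7 kb above, held 14.4 and 11.5 per 1000 in EV, 5.95 and 8.18 in S1KO and 18.4 and 12.5 in DKO. The fragment chr5:170898251-170899386, 46.4 kb above, held 12.5 and 15.0 in EV, 7.94 and 5.97 in S1KO, with DKO at 11.6 and 14.4. In both places the DKO libraries lay near EV and not near S1KO, and neither passed the test between S1KO and EV (edgeR adjusted p = 0.438 each). The fragment between them, chr5:170892723-170898246, held 13.0 and 15.6 in EV and 18.5 and 14.2 in S1KO, so the groups overlapped. The nearest strong contact, chr5:170862833-170866306, held 35.8 and 21.1 in EV and 30.7 and 17.2 in S1KO, with replicates farther apart than groups. The contact beyond 100 kb with the highest EV mean, chr5:171055025-171064475 at 207 kb above, held 9.81 and 15.6 in EV and 18.4 and 15.0 in S1KO.

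The viewpoint fragment itself, which was left out of all shares, took 0.716% and 0.681% of all EV reads and 0.575% and 0.449% of all S1KO reads. In DKO it took 2.78% and 1.51%.

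The windows with the lowest p farther out were mostly sparse. The window chr5:170502458-170552457, from 350 to 300 kb below, had the lowest, with 169 and 62 reads in EV and 704 and 492 in S1KO. As shares these were 2.47 and 0.947 per 1000 in EV, 5.37 and 4.59 in S1KO and 5.32 and 6.96 in DKO. The change from EV to S1KO was log2 1.54 with an SE of 0.56 and an edgeR adjusted p of 0.576. S1KO and DKO lay together there, above both EV libraries. The window from 550 to 500 kb below, chr5:170302458-170352457, held 1.36 and 2.46 in EV, 3.45 and 4.52 in S1KO. DKO held 7.61 and 6.50 there. S1KO thus lay between EV and DKO in every library.

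Other windows below depended on single libraries. The window chr5:169952458-170002457, from 900 to 850 kb below, held 4.45 and 3.35 per 1000 in EV, 9.79 and 5.10 in S1KO and 5.12 and 4.64 in DKO, so its S1KO mean rested on replicate 1. The window chr5:170602458-170652457, from 250 to 200 kb below, held 11.5 and 3.07 in EV and 12.1 and 10.9 in S1KO. Its log2 fold change was 0.66 with all libraries, 1.91 without EV replicate 1 and -0.0013 without EV replicate 2. The window chr5:169152458-169202457, from 1700 to 1650 kb below, held 2.77 and 0.855 in EV and 2.88 and 5.20 in S1KO, and its log2 fold change of 1.16 was 0.55 without EV replicate 2, 0.67 without S1KO replicate 2 and 2.24 without EV replicate 1.

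Above the viewpoint, the window chr5:171352458-171402457, from 500 to 550 kb, was the fullest of those lower in S1KO in this set. It held 34.7 and 33.3 per 1000 in EV, 26.1 and 23.9 in S1KO and 16.9 and 17.0 in DKO. S1KO stood at log2 -0.44 against EV, with an SE of 0.25 and an edgeR adjusted p of 0.576. The change was log2 -0.18 with chr5 reads as library size, -0.27 with capped reads and -0.51 with TMM factors. The replicates of each group lay close together, and S1KO lay between EV and DKO. The window chr5:171852458-171902457, from 1000 to 1050 kb, held 11.9 and 10.6 in EV, 4.05 and 9.25 in S1KO and 5.60 and 5.80 in DKO. The window chr5:172202458-172252457, from 1350 to 1400 kb, went the other way in S1KO, with 5.48 and 1.93 in EV, 6.73 and 7.62 in S1KO and 2.52 and 2.42 in DKO.

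**Figure D4:**
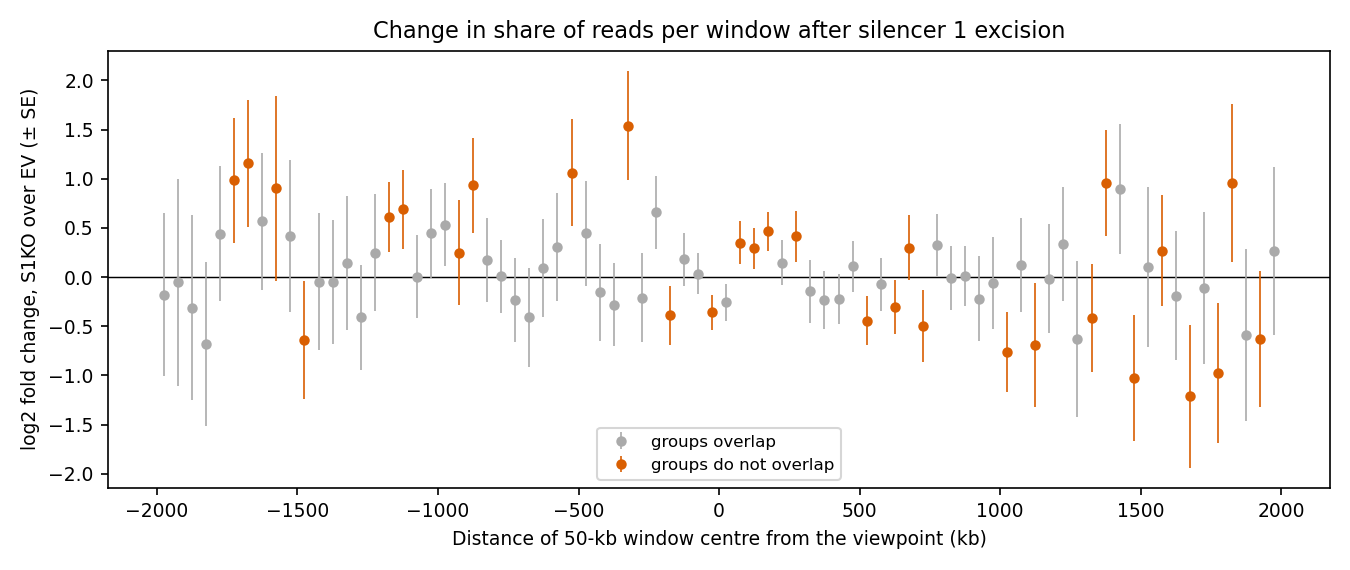
log2 fold change of S1KO over EV (± SE derived from edgeR's F statistic) in 80 windows of 50 kb, against distance from the viewpoint, with windows in which the groups do not overlap in orange. Changes lie between -1.21 and 1.54, error bars widen away from the viewpoint, and 0 windows passed the adjusted threshold.

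Single fragments were tested over all of chr5 in 1 fit, and 0 of 5017 passed in edgeR (0% called), with 47 at an unadjusted p under 0.05 (0.937%). Within 2 Mb, 789 of the 917 fragments had enough reads to be tested, and 26 of these (3.3%) had an unadjusted p under 0.05. Fold changes in this fit are on the scale of chr5 reads. On that scale the median was log2 0.19 over all fragments and 0.43 over those within 2 Mb. DESeq2 called 9 fragments on chr5, 4 of them within 2 Mb.

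Besides the long fragments above, the lowest p-values included 2 places near FGF18. The fragment chr5:170988142-170991353, 137 kb above, held 1.33 and 0.611 per 1000 in EV, 4.07 and 3.69 in S1KO and 4.49 and 7.31 in DKO. Its change from EV to S1KO was log2 2.14 (SE 0.73; edgeR adjusted p = 0.438). The fragment chr5:170912383-170914427, 60.9 kb above, held 2.21 and 5.29 in EV and 8.26 and 7.05 in S1KO. In both, the S1KO libraries lay close together and above both EV libraries.

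Fragments read in only 1 group were listed as a description. The excised interval is not known here, so whether any of them lies in it was not tested. Within 2 Mb, 11 fragments had a read in both EV libraries and in neither S1KO library, which is 1.26% of the 870 read in these 4 libraries, against 2.07% on the rest of chr5. DKO reads were present in 8 of these 11. The 3 without reads in S1KO or DKO were chr5:172527999-172528871 with 10 and 33 EV reads, chr5:170263791-170265696 with 5 and 33, and chr5:169086282-169086583 with 8 and 3. They were singled out after their values were seen. With 1 of the 4 libraries left out, the count of 11 became 23 to 52.

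The fragments with most EV reads and none in S1KO lay near each other. The fragment chr5:170205155-170206348, 647 kb below, had 32 and 107 reads in EV, 0 and 0 in S1KO and 150 and 183 in DKO. The fragment chr5:170215851-170216182, 636 kb below, had 34 and 88 in EV, 0 and 0 in S1KO and 62 and 156 in DKO. Against a floor of 3 reads per library they were at least 41.3-fold and 36.2-fold lower in S1KO, with an edgeR adjusted p of 0.438 for each (DESeq2 0.023 and 0.049). Above the viewpoint, chr5:171968651-171970264 had 84 and 33 EV reads and chr5:171699375-171699730 had 3 and 82. Fewer were read at chr5:169374952-169375124, which had 9 and 47. Close to it in pattern but with 1 S1KO library above 0, chr5:170659586-170665206, 190 kb below, held 1.90 and 2.40 per 1000 in EV, 0.130 and 0 in S1KO and a mean of 2.06 in DKO, and DESeq2 also called it.

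The opposite pattern was more frequent. Within 2 Mb 54 fragments were read in both S1KO libraries and in neither EV library, 6.21% of the 870, against 3.61% on the rest of chr5. Leaving out a library relaxes this rule, and the count was then 222 without EV replicate 1, 72 without EV replicate 2, 79 without S1KO replicate 1 and 94 without S1KO replicate 2. The EV libraries held 68303 and 65464 reads within 2 Mb against 131098 and 107152 in S1KO. The part in the count of this depth, and of the fewer fragments listed in EV replicate 2, was not tested. Fragments near the viewpoint were also read more often: 789 of 917 within 2 Mb had enough reads to be tested, against 5017 of 20395 over chr5. The shares within and beyond 2 Mb thus differ in read density, here and for EV alone, and its part was not tested. Of the 54, 47 had reads in DKO. The most read was chr5:169204985-169210843, 1645 kb below, with 0 and 0 reads in EV, 228 and 69 in S1KO and 148 and 240 in DKO, at least 26.6-fold higher in S1KO (edgeR adjusted p = 0.438, DESeq2 0.023). Next came chr5:172776918-172782519, 1927 kb above, with 119 and 73 S1KO reads, and chr5:172472788-172478096, 1623 kb above, with 83 and 87. The fragments chr5:172442581-172444010 (76 and 54) and chr5:169458517-169459547 (11 and 118) followed. Of these 5, DESeq2 called the first alone, and all of them lay more than 1 Mb from FGF18.

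The authors' deposited table gives its own q-value for each fragment in each library. At q under 0.05, the authors' deposited table called 11 and 5 fragments within 2 Mb of the viewpoint for EV, 17 and 15 for S1KO, and 8 and 19 for DKO. Both S1KO libraries had more than both EV libraries (exact two-sided permutation p = 0.33), and the library with 5 calls was EV replicate 2. These calls were among 709 and 445 fragments listed within 2 Mb in EV, 739 and 647 in S1KO, and 691 and 813 in DKO. Reads within 2 Mb were 68303 and 65464 in EV and 131098 and 107152 in S1KO. The part of this depth in the number of calls was not tested. All 5 fragments called in both EV libraries in the authors' deposited table were among the 12 called in both S1KO libraries, which is 100% of the first set and 41.7% of the second. They lie within 62.1 kb of the viewpoint. In the authors' deposited table there were 0 fragments called in both EV libraries and neither S1KO library, and 4 in both S1KO libraries and neither EV library, 0.0261% of the 15339 chr5 fragments read.

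These 4 fragments are chr5:170804582-170813634 (43.4 kb below), chr5:170970838-170983335, chr5:171021955-171042009 and chr5:171055025-171064475. As shares, the fragments 125 and 180 kb above were higher in both S1KO libraries than in both EV libraries, and the groups overlapped in the other 2, with the values given above. At chr5:170804582-170813634 the deposited q-value was 0.0504 in EV replicate 1, just over the cut, and 0.138 in EV replicate 2. At chr5:171055025-171064475, EV replicate 2 at 15.6 per 1000 was not called, while S1KO replicate 2 at 15.0 was. The reach of the calls overlapped between the groups. The farthest call of the authors' deposited table within 2 Mb lay 393 kb from the viewpoint in EV replicate 1 and 62.1 kb in EV replicate 2. It lay at 588 and 265 kb in S1KO and at 133 and 167 kb in DKO.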

How the data were processed

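Per the labels' protocols, template DNA was cut with HindIII and DpnII and run on a MiSeq. The submitters' processing notes name Bowtie2 2.2.5 and hg19. Which program called interactions, and with which filters, is not stated in those sources. The deposited files list HindIII fragments with at least 1 read in a library. Per the file headers, the authors give raw read counts for each fragment, with no scaling. The authors' deposited p-value and q-value belong to 1 library each. The authors' column RPMs was taken as a score, because its sums per library are too high for the unit in its heading, and was left unused.

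Unlisted fragments counted as 0, and those within 10 kb of the viewpoint midpoint were left out. Reads in 80 windows of 50 kb within 2 Mb were tested by edgeR 4.0.16 (R 4.3.3) with its quasi-likelihood test on all 6 libraries, keeping windows with at least 10 reads in at least 2 libraries. Library size was the number of reads within 2 Mb. Fragments were tested over chr5 with TMM and chr5 reads as library size. The quasi-likelihood test gives no standard error. The SE of a window or fragment is its absolute log2 fold change divided by the square root of its F statistic. P-values were adjusted by Benjamini-Hochberg and held against 0.05. DESeq2 1.42.0 was an alternative. The edgeR procedure was also run on simulated data whose spread was set by hand. That run cannot show how the procedure performs at the spread of these libraries. Exact permutation tests (Python 3.11.15) served for shares and the ratio; 2 libraries against 2 cannot go below 0.33.

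The rule names the 10 windows and 10 fragments with the lowest p, the 10 fragments with the highest EV share, all bands, and, per direction, the 5 most read fragments of 1 group only. The members, lists and rule were chosen with earlier results of these data known. A test over gene stretches was planned and not run, because no hg19 gene positions were used. Replicate numbers were not used as pairs, since the labels do not say that they mark a shared batch. As alternatives, the scaling, the filter, the window size and the zone were changed, reads were capped, the 4 libraries were fitted alone, the replicate number was made a block, and each library was left out.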

Additional observations from a re-analysis of the deposited data

How the results depend on the processing

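The count of 0 windows held under 13 of the 14 alternatives and was 3 without EV replicate 1 (range 0 to 3 with 1 library left out). The count of 0 fragments over chr5 was 9 by DESeq2 and 0 under the other 8. With the replicate number as a block, edgeR called 0 windows and 0 fragments; deviations of same-numbered EV and S1KO libraries correlated at 0.052 over the 80 windows. Chr5 reads as library size moved the median window from log2 0.0092 to 0.31, still with 0 calls. Shares by fragments with at least 1 read reversed the bands 100 to 200 kb below (0.434 per 1000), 500 to 1000 kb below (-3.32), 100 to 200 kb above (-6.18) and 200 to 500 kb above (-13.2), and the 20-kb zone reversed the last (-1.16). In the band 100 to 200 kb above nearly every fragment had a read, so this share follows how many fragments each library listed. With 1 library left out, the band 100 to 200 kb below ran from -3.83 to 2.199, 10 to 100 kb above from -17.3 to 9.35, and 200 to 500 kb above from -4.49 to 14.3. Fragments read in EV alone numbered 11, 5 at a minimum of 10 reads, and 23 to 52 with 1 library left out, which asks for fewer libraries; those read in S1KO alone numbered 54, and 72 to 222. Among named windows, chr5:171002458-171052457 turned to log2 -0.0087 with capped reads, and chr5:170602458-170652457 ran from -0.0013 to 1.91. Among named fragments, chr5:170820839-170833077 turned from just under 0 to 0.017 without TMM, 0.0011 with the replicate block and 0.016 with the 4 libraries alone (-0.17 to 0.14 with 1 left out). The fragment chr5:170862833-170866306 ran from -0.74 to 0.79, and chr5:170804582-170813634 turned from 0.14 to -0.043 by DESeq2 and ran from -0.12 to 0.37. The cause of these turns was not tested. The other alternatives kept each direction. The alternatives over gene stretches were not run. With 65464 to 131098 reads within 2 Mb per library, sparse windows limited what could be seen.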
